A study of Mus musculus with 7 samples.

Results

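The genes described here are 9 that write, erase or read DNA methylation, taken by name from the 54532 genes of the deposited tables. They are the DNA methyltransferases Dnmt1, Dnmt3a and Dnmt3b, their partner Uhrf1, the demethylating oxygenases Tet1, Tet2 and Tet3, and the methyl-CpG-binding proteins Mbd1 and Mbd2. All 9 had enough counts to be tested among 17975 genes. Their transcripts were followed in olfactory epithelium cells of young mice, in which poly(A) RNA of fluorescence-sorted cells was sequenced. Mature olfactory sensory neurons were sorted from OMP-GFP mice at postnatal days 2, 7 and 16 (P2, P7 and P16; 3 libraries). Intermediate progenitors were sorted from Neurog1-GFP mice at P3, P7, P9 and P16 (4 libraries). Pools of sorted cells gave the RNA. All animals carried a GFP reporter named for Omp or Neurog1, and the label of a population therefore also names its mouse line. Effects of cell type and of mouse line cannot be told apart.

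In mammals, methyl groups sit mostly on cytosines followed by guanine (CpG). Dnmt3a and Dnmt3b place them on unmethylated DNA, while Dnmt1, guided by Uhrf1 to the hemimethylated DNA behind a replication fork, copies them onto the new strand. The Tet enzymes oxidise methylcytosine, which leads to its removal by dilution or repair, and the Mbd proteins bind methylated CpG and recruit repressive complexes. Neurons are known for Dnmt3a that acts after birth and for much oxidised methylcytosine. The DNA methylation itself was not measured here.

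Library depth ran from 24203965 to 25930727 counts assigned to genes. Each age is 1 library per population, the ages served as replicates, and separate animals behind the libraries are not named in the labels. The p-values therefore reflect variation among these 7 libraries, which includes age and may be partly technical. Levels are given in TPM (transcript abundance scaled for length and to a fixed total per library), and folds come from the counts. The labels were set against markers: 14 of 15 mature neuron markers were higher in mature neurons and all 13 progenitor markers were lower (edgeR quasi-likelihood test, adjusted p under 0.05). By the same test 28.8% of all tested genes were higher and 30.0% lower. The bHLH factor gene Neurog1 had 1.56 ± 0.491 CPM (counts scaled to library size) in mature neurons, against 500.1 ± 225 CPM in progenitors, and the proliferation marker Mki67 had 22.5 ± 7.40 CPM in mature neurons, against 152 ± 28.0 CPM in progenitors (SD, n = 3 and 4). Omp, which names the reporter of the mature neurons, did not separate the populations, with 1936 ± 442 CPM in mature neurons, against 2566 ± 632 CPM in progenitors (adjusted p = 0.179, edgeR). The cause of the Omp level in either population was not tested. Mature neuron markers summed to 21559 to 30978 CPM in mature neurons, against 7506 to 11306 CPM in progenitors. In bulk samples, fewer cells of a type and less RNA per cell cannot be told apart.

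For a first view of the regulatory DNA, promoter windows of 300 bases, running from 250 bases before to 50 bases after a transcript start, were taken from RefSeq (GRCm38.p6). Of the 9 genes 7 matched, with 12 windows, and Mbd1 and Mbd2 are named only. Each window was searched on both strands for the E2F letters TTTCCCGC, TTTGGCGC, TTTCGCGC and TTTGCCGC. E2F factors bind at genes of the S phase. Of the 12 windows 2 held such letters, 1 of Dnmt1 and 1 of Uhrf1, while 2.27% of all 32851 windows did. Each of the E2F words searched contains CpG, and the share among windows equally dense in CpG was not counted. The 2 matching windows are shown, with the window of Dnmt3b, which held none, as the genes with the 3 lowest folds described below. Capitals mark the E2F letters, and sequences run 5′ to 3′ on the strand of the gene.
Dnmt1, chr9:20952574-20952873, minus strand: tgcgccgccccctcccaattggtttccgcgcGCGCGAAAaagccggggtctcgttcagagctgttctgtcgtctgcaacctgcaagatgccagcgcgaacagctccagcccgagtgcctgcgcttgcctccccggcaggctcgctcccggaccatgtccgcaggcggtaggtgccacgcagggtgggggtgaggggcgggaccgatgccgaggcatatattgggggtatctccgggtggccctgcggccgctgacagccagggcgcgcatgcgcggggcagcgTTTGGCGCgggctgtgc
Uhrf1, chr17:56304063-56304362, plus strand: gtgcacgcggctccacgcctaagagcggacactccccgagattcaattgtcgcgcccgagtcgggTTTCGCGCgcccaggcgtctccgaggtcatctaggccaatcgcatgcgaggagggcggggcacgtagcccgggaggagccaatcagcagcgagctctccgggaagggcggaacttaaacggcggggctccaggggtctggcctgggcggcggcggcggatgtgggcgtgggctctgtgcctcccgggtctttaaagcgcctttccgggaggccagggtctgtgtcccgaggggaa
Dnmt3b, chr2:153649199-153649498, plus strand: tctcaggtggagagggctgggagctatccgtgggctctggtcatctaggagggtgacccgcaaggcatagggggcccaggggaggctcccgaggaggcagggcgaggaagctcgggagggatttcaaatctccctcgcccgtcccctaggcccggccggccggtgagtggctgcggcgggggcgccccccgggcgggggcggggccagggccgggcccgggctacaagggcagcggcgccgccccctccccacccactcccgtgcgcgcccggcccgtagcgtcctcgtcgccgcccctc
In the Dnmt1 window GCGCGAAA, the reverse complement of TTTCGCGC, lies at position -219 and TTTGGCGC at position 33, and in the Uhrf1 window TTTCGCGC lies at -185, counted from 0 at the start base. The letters CCAAT, also searched on both strands, occur 3 times in the Dnmt1 window, where 2 of the matches overlap, and 2 times in the Uhrf1 window, and are absent from the Dnmt3b window, where 37.4% of all windows hold them. CpG is dense in all 3 windows, with 33 in Dnmt1, 33 in Uhrf1 and 30 in Dnmt3b, against a median of 7 over all windows. Across all 12 windows the number ran from 2, at the most upstream start of Dnmt1, to 57 in Tet2. These letters describe the sequence only, and no binding was measured.

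Between the populations, 6 of the 9 genes differed at an adjusted p under 0.05 (edgeR quasi-likelihood test). Dnmt1, Dnmt3b, Uhrf1, Tet1 and Tet3 were lower in mature neurons, Dnmt3a was higher, and Tet2, Mbd1 and Mbd2 did not pass the test. Over all tested genes 58.8% were called, 28.8% higher and 30.0% lower, so the number called among the 9 is near the background. Their median log2 fold was -0.50, against 0.01 over all genes. By CPM, every mature library lay below every progenitor library for 4 of the 9 and above for 1, as was so for 32.2% and 29.2% of all tested genes (61.4% together). By TPM, 6 of the 9 lay below and none above, where 36.3% of all tested genes lay below and 22.8% above.

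**Figure D1:**
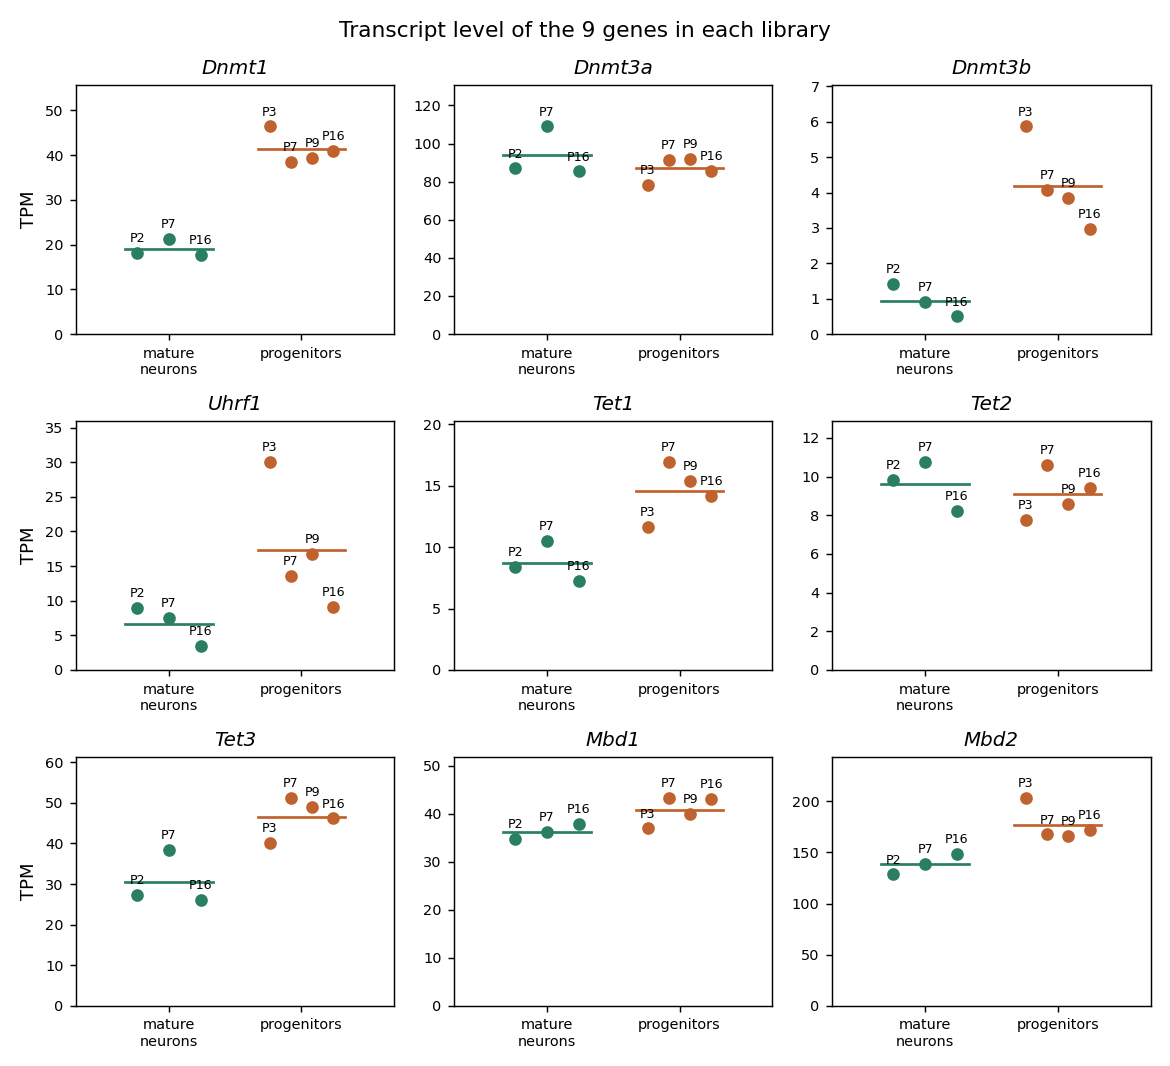
TPM (vertical axes) of the 9 genes in mature neurons (left in each panel) and progenitors (right), with each point 1 library and a bar for the mean. Dnmt1 and Dnmt3b are separate between the populations, while Tet2 and Dnmt3a overlap on this scale.

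**Figure D2:**
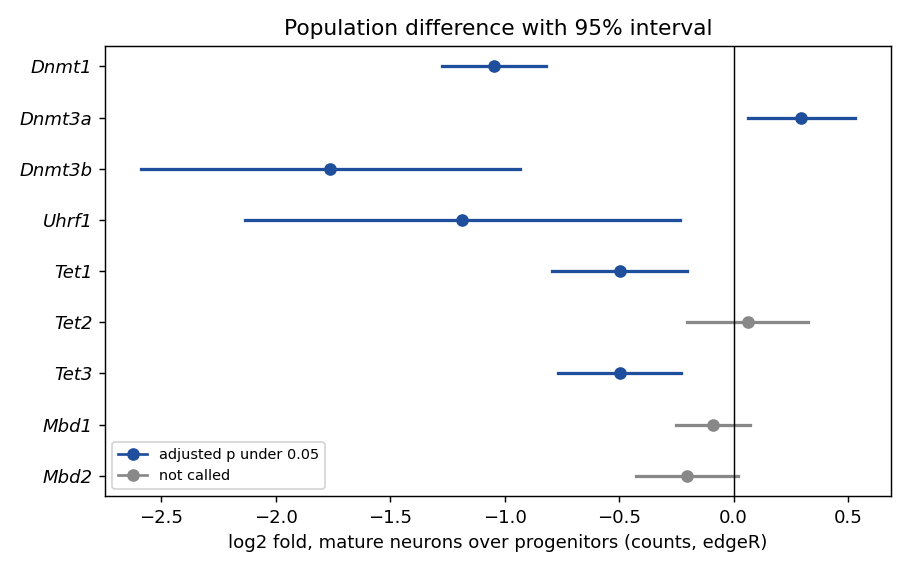
Log2 fold of mature neurons over progenitors (horizontal axis, from counts by edgeR) for each of the 9 genes, with its 95% interval as a line. Dnmt3b, Uhrf1 and Dnmt1 have folds below -1, and Dnmt3a is the gene called higher.

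Among the writers, Dnmt1 (chr9:20907209-20959888, GRCm38), which maintains methylation after replication, had 18.1, 21.2 and 17.7 TPM in P2, P7 and P16 mature neurons, against 46.4, 38.5, 39.4 and 40.9 TPM in P3, P7, P9 and P16 progenitors. Every mature library lay below every progenitor library. The log2 fold was -1.05 ± 0.10 (SE; 95% interval -1.27 to -0.82), and Dnmt1 fell at an adjusted p of 6.26e-05 (edgeR). Across 16 alternatives the fold stayed between -1.19 and -0.91 and the call held. At matched ages the log2 difference in CPM was -0.92 at P7 and -0.92 at P16.

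Dnmt3a (chr12:3806007-3914443), a de novo methyltransferase, had 86.9, 108.9 and 85.4 TPM in P2, P7 and P16 mature neurons, against 78.5, 91.6, 91.8 and 85.8 TPM in P3, P7, P9 and P16 progenitors. In TPM the populations overlapped. In CPM the mature libraries, at 334, 424 and 331 CPM, all lay above the progenitor libraries, at 272 to 312 CPM. The log2 fold was 0.30 ± 0.10 (SE; 95% interval 0.06 to 0.53; adjusted p = 0.0348, edgeR). This call was lost in 7 of 16 alternatives, with a log2 fold of 0.15 scaled by library size alone (adjusted p = 0.235, edgeR), 0.10 on log2(TPM + 1) (adjusted p = 0.408, limma) and 0.17 without the P7 mature library (adjusted p = 0.116, edgeR). On log2(TPM + 0.1) it was 0.10 (adjusted p = 0.413, limma), and without the P3, P9 or P16 progenitor library it was 0.25, 0.30 and 0.29 (adjusted p = 0.0818, 0.0662 and 0.0695, edgeR). It shares 133 exon bases with Dnmt3aos on the opposite strand, whose reads cannot be told apart if the counting ignored strand.

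Dnmt3b (chr2:153649450-153687730), the other de novo enzyme, was the least abundant of the 9. It had 1.43, 0.90 and 0.50 TPM in P2, P7 and P16 mature neurons, from 76, 53 and 25 counts, against 5.87, 4.08, 3.85 and 2.97 TPM in P3, P7, P9 and P16 progenitors, from 266, 184, 184 and 153 counts. The populations did not overlap, and within each the level was lower in each later library. Dnmt3b fell by 1.76 on the log2 scale (SE 0.36; 95% interval -2.59 to -0.93; adjusted p = 0.00322, edgeR), and the call held in 16 of 16 alternatives, with folds of -2.15 to -1.26.

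Set against each other within a library, which no scaling between libraries can change, the writers had another makeup in the 2 populations. The TPM ratio of Dnmt3a to Dnmt1 was 4.80, 5.14 and 4.83 in P2, P7 and P16 mature neurons, against 1.69, 2.38, 2.33 and 2.10 in P3, P7, P9 and P16 progenitors. The ratio of Dnmt3b to Dnmt3a averaged 0.0102 ± 0.00555 in mature neurons, against 0.0490 ± 0.0177 in progenitors (SD, n = 3 and 4). Both ratios separated all libraries, and each gave the smallest p that a two-sided exact permutation test over the 35 splits can give, 0.0286 (0.0429 adjusted over 6 ratios). Dnmt1 and Dnmt3b also separated the libraries alone, as 61.4% of all tested genes did by CPM. The ratios therefore partly restate their folds, and the share of all gene pairs with such a ratio was not counted. Dnmt3a made up 82.4% ± 0.740 of the summed Dnmt TPM in mature neurons, against 65.6% ± 3.84 in progenitors, and Dnmt1 16.7% ± 0.493 in mature neurons, against 31.2% ± 3.10 in progenitors (SD). The sums themselves overlapped, at 103.5 to 131.0 TPM in mature neurons, against 129.7 to 135.1 TPM in progenitors.

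**Figure D3:**
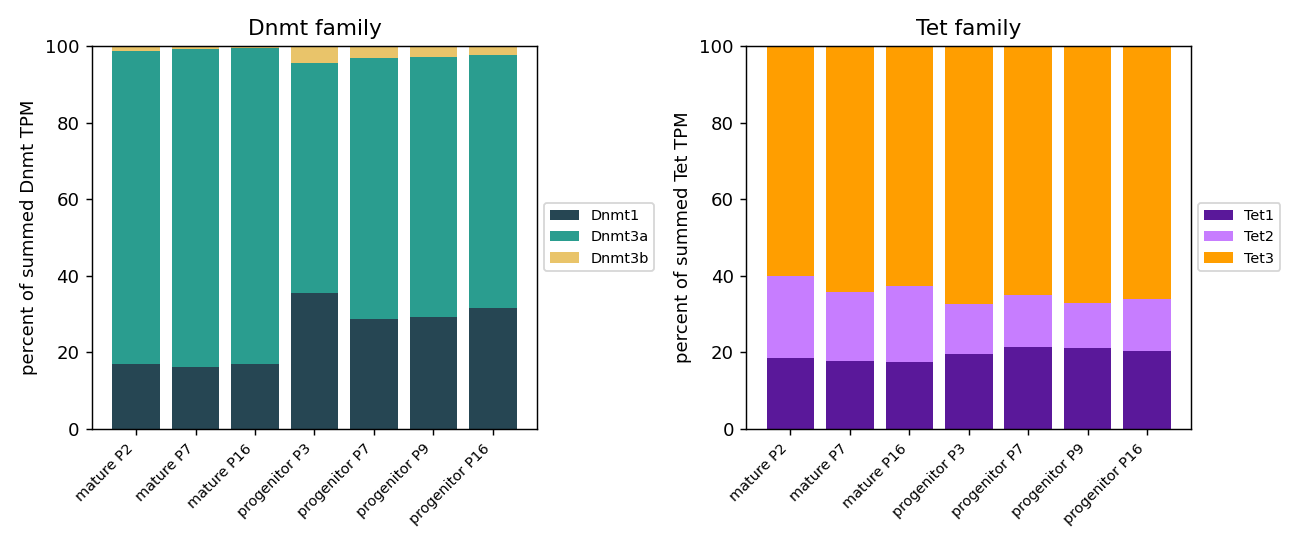
Percent of summed TPM (vertical axis) of the Dnmt genes and of the Tet genes in each library, mature neurons on the left by age and progenitors on the right. Dnmt3a holds 82.4% of the Dnmt sum on average in mature neurons, against 65.6% in progenitors.

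Uhrf1 (chr17:56303321-56323486), which recognises hemimethylated CpG and brings in Dnmt1, had 8.97, 7.51 and 3.51 TPM in P2, P7 and P16 mature neurons, against 30.0, 13.6, 16.8 and 9.06 TPM in P3, P7, P9 and P16 progenitors. The oldest progenitor library and the youngest mature library almost met, and in CPM they overlapped (11.4 CPM in P2 mature neurons and 11.3 CPM in P16 progenitors). The log2 fold was -1.18 ± 0.41 (SE; 95% interval -2.13 to -0.23; adjusted p = 0.0368, edgeR). The call was lost in 6 of 16 alternatives. Leaving out the P16 mature library gave -0.85 (adjusted p = 0.0617, edgeR), leaving out the P3 progenitor library -0.87 (adjusted p = 0.0862), and leaving out both, a choice made after seeing the data, -0.54 (adjusted p = 0.0561). Leaving out the P7 mature, P7 progenitor or P9 progenitor library left the fold at -1.28, -1.27 and -1.21 with adjusted p of 0.0720, 0.0530 and 0.0634 (edgeR). With the P7 and P16 libraries alone and age as a block it was -1.11 (adjusted p = 0.0109, edgeR). The ratio of Uhrf1 to Dnmt1 overlapped between the populations, at 0.350 ± 0.148 in mature neurons, against 0.411 ± 0.178 in progenitors (SD; exact permutation p = 0.714).

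Among the erasers, Tet1 (chr10:62804570-62908996) and Tet3 (chr6:83362373-83459084) were lower in mature neurons and Tet2 (chr3:133463679-133545139) was not called. Tet1 had 8.38, 10.5 and 7.25 TPM in P2, P7 and P16 mature neurons, against 11.7, 16.9, 15.4 and 14.2 TPM in P3, P7, P9 and P16 progenitors. Tet3, the most abundant of the family, had 27.3, 38.4 and 26.0 TPM in P2, P7 and P16 mature neurons, against 40.0, 51.2, 48.9 and 46.2 TPM in P3, P7, P9 and P16 progenitors. Neither gene overlapped between the populations, and in mature neurons the P7 library was the highest for both. The log2 folds were -0.50 ± 0.13 for Tet1 (SE; adjusted p = 0.0100, edgeR) and -0.50 ± 0.12 for Tet3 (adjusted p = 0.00658, edgeR), and both calls held in 16 of 16 alternatives. Tet2 had 9.81, 10.7 and 8.23 TPM in mature neurons, against 7.74, 10.6, 8.60 and 9.43 TPM in progenitors, and the populations overlapped. Its log2 fold was 0.06 with a 95% interval of -0.20 to 0.33 (adjusted p = 0.668, edgeR), and it shares 43 exon bases with Gm42567 on the opposite strand.

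The makeup of the Tet family differed between the populations. Tet2 made up 19.8% of the summed Tet TPM on average in mature neurons, against 13.0% in progenitors. Tet1 made up 17.9% in mature neurons, against 20.6% in progenitors, and Tet3 62.3% in mature neurons, against 66.4% in progenitors. The ratio of Tet2 to Tet3 was 0.359, 0.280 and 0.317 in P2, P7 and P16 mature neurons, against 0.193, 0.207, 0.176 and 0.204 in P3, P7, P9 and P16 progenitors. The ratio of Tet1 to Tet2 averaged 0.905 ± 0.0665 in mature neurons, against 1.60 ± 0.133 in progenitors (SD, n = 3 and 4). Both separated all libraries (two-sided exact permutation p = 0.0286 each, adjusted 0.0429). Tet1 and Tet3 also separated the libraries alone, so these ratios partly restate their folds. The ratio of Tet3 to Tet1 overlapped, at 3.50 ± 0.204 in mature neurons, against 3.22 ± 0.169 in progenitors (exact permutation p = 0.143). The summed Tet level was 41.5 to 59.6 TPM in mature neurons, against 59.5 to 78.7 TPM in progenitors, where the highest mature library, at P7, just overlapped the lowest progenitor library, at P3.

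Of the readers, neither passed the test on counts. Mbd2, which brings the NuRD deacetylase complex to methylated DNA, was the most abundant of the 9, with 128.5, 139.0 and 148.8 TPM in P2, P7 and P16 mature neurons, against 203, 168, 166 and 172 TPM in P3, P7, P9 and P16 progenitors. The populations were separate in TPM and overlapped in CPM. The log2 fold from counts was -0.20 (95% interval -0.42 to 0.02; adjusted p = 0.106, edgeR), while on log2(TPM + 1) it was -0.35 (adjusted p = 0.00872, limma). Mbd1, a reader that also has a domain for unmethylated CpG, had 34.8, 36.3 and 37.8 TPM in P2, P7 and P16 mature neurons, against 37.0, 43.3, 39.9 and 43.1 TPM in P3, P7, P9 and P16 progenitors. The log2 fold was -0.09 (95% interval -0.25 to 0.07; adjusted p = 0.310, edgeR). Both were called lower when libraries were scaled by size alone, Mbd1 at -0.23 (adjusted p = 0.00840) and Mbd2 at -0.35 (adjusted p = 0.0106), a scaling that moved the median of all genes to -0.13 on the log2 scale.

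Ordered by TPM, Mbd2 and Dnmt3a led in both populations and Dnmt3b came last. In mature neurons Mbd1, Tet3, Dnmt1, Tet2, Tet1 and Uhrf1 followed Dnmt3a, and the ranges of Mbd1 and Tet3, of Tet2 and Tet1, and of Tet1 and Uhrf1 overlapped. In progenitors the order was Tet3, Dnmt1, Mbd1, Uhrf1, Tet1 and Tet2, and the ranges of Tet3 and Dnmt1, of Dnmt1 and Mbd1, and of Uhrf1 and Tet1 overlapped. Dnmt1 thus stood below Tet3 and Mbd1 in every mature library, while in progenitors these 3 lay at 36.96 to 51.16 TPM together.

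Over age, no gene of the 17975 passed the edgeR test of a slope shared by both populations (0% called; 3746 genes, 3 of the 9 among them, had an unadjusted p under 0.05; DESeq2 called 1500). Uhrf1 and Dnmt3b had the steepest slopes of the 9. Uhrf1 was at -0.50 ± 0.09 log2 units per doubling of postnatal day (SE; adjusted p = 0.0588, edgeR). Dnmt3b was at -0.41 ± 0.09 (adjusted p = 0.0697, edgeR), and neither passed. Such values were not particular to them, since Mki67 and Krt8 each had an adjusted p of 0.0586 (edgeR). Uhrf1 and Dnmt3b were called by DESeq2 (adjusted p = 3.18e-05 for Uhrf1 and 0.00446 for Dnmt3b), with no filter on low counts, with age in days in place of doublings, and without the P7 mature library. Leaving out 1 of the other libraries gave no call. In CPM, Uhrf1 was 2.88 times as high in P2 as in P16 mature neurons and 2.62 times as high in P3 as in P16 progenitors. Dnmt3b was 3.0 times as high in P2 as in P16 mature neurons and 1.72 times as high in P3 as in P16 progenitors. The third gene with an unadjusted p under 0.05 was Mbd1, with a slope of 0.06 (adjusted p = 0.200, edgeR).

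No difference of slopes between the populations passed the edgeR test for any of the 9 (0% called of all genes; 1075 had an unadjusted p under 0.05; DESeq2 called 6). Dnmt1 and Mbd2 had unadjusted p under 0.05, with a mature minus progenitor slope of 0.19 for Dnmt1 (adjusted p = 0.806, edgeR) and 0.18 for Mbd2 (adjusted p = 0.806). For Dnmt1, the slope in log2 units per doubling was 0.04 in mature neurons and -0.15 in progenitors.

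**Figure D4:**
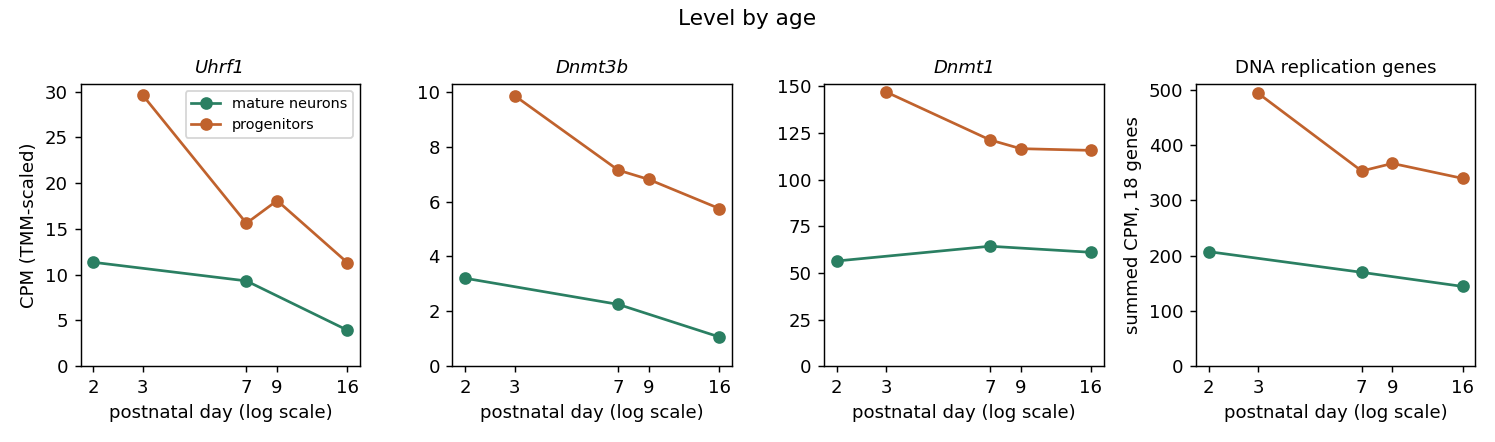
CPM of Uhrf1, Dnmt3b and Dnmt1 and summed CPM of 18 DNA replication genes (vertical axes from 0) by postnatal day on a log scale, with each point 1 library. Replication genes sum to 144 to 207 CPM in mature neurons, against 340 to 494 CPM in progenitors, and the P3 progenitor library is the highest in all 4 panels.

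DNA replication genes moved with these values. Of 18 listed, 16 fell in mature neurons and none rose, where 30.0% of all tested genes were lower and 28.8% higher. Their median log2 fold was -1.38, against 0.01 over all genes. Mcm7, a subunit of the replicative helicase, fell by 1.87 on the log2 scale (adjusted p = 3.86e-05, edgeR), Gins1 by 1.82 (adjusted p = 0.000190), the clamp loader subunit Rfc4 by 1.05 and the licensing factor gene Cdt1 by 1.53. Mcm7 shares 385 exon bases with Cops6 and Ap4m1, and Rfc4 194 with Eif4a2, on the opposite strand. On its own strand Mcm7 shares 172 with Mir25 and Mir93. Their sum, like Uhrf1 and Dnmt3b, was lowest in the P16 mature library and highest in the P3 progenitor library. The part of dividing cells in the folds of the methylation genes was not tested.

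Markers of other cell types were counted as well, where 28.8% of all tested genes were higher in mature neurons and 30.0% lower. The horizontal basal, microvillous and erythroid counts were below these shares, and the vascular and stromal count was near them. Of 16 leukocyte markers tested, 13 were higher in mature neurons and 1 was lower, summing to 60.1, 47.4 and 152 CPM there at P2, P7 and P16, against 34.3 to 53.2 CPM in progenitors. The lower one, Coro1a, named after its values were seen, had 11.7 CPM in mature neurons, against 22.7 CPM in progenitors. Of 15 sustentacular cell markers 6 were higher (sums of 2803 to 4213 CPM in mature neurons, against 1801 to 3362 CPM in progenitors), and of 11 horizontal basal cell markers 1 was higher (233 to 266 CPM in mature neurons, against 179 to 208 CPM in progenitors). The higher one, Dst, made up most of the basal sum, with 188 CPM in mature neurons, against 136 CPM in progenitors. The other 10 basal markers were not called. Of 12 immature neuron markers 11 were lower in mature neurons, with sums of 2756 to 3640 CPM there and 9249 to 10771 CPM in progenitors. Of 7 microvillous cell markers 1 was higher and 2 were lower (46.7 to 86.8 CPM in mature neurons, against 107 to 163 CPM in progenitors). Coch had the highest mean of these, at 27.6 CPM in mature neurons, against 100.03 CPM in progenitors. Of 10 ensheathing glia markers 6 were higher and 1 lower (summed 62.5 to 112 CPM in mature neurons, against 107 to 114 CPM in progenitors). The lower one, Mbp, had 26.1 CPM in mature neurons, against 87.8 CPM in progenitors, so this sum runs against the 6 higher members. Dst, Coch and Mbp were also named after their values were seen. Of 8 vascular and stromal markers 3 were higher (111 to 382 CPM in mature neurons, against 87.1 to 206 CPM in progenitors), and of 5 erythroid markers 1 was higher (35.1 to 292 CPM in mature neurons, against 17.4 to 125 CPM in progenitors). The P16 mature library stood highest in the leukocyte, vascular and erythroid sums, and no marker was at 0 counts in all libraries. The part of these cells in the folds was not tested.

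Beyond the 9 genes, the wider pathway was counted in lists, which are set beside the background of 28.8% higher and 30.0% lower. Of 9 maintenance and writer cofactors tested, 1 rose and 3 fell (median log2 fold -0.20). Hells, a chromatin remodeller needed for normal methylation, had 12.0 ± 3.46 CPM in mature neurons, against 34.2 ± 1.07 CPM in progenitors (log2 fold -1.50, adjusted p = 0.000233, edgeR). Uhrf2, the paralogue of Uhrf1, fell by 0.33 (adjusted p = 0.00623), as did Usp7, which deubiquitinates Uhrf1 and Dnmt1, by 0.20 (adjusted p = 0.0489). Trdmt1, a transfer RNA methyltransferase of the Dnmt family, rose in counts (log2 fold 0.71, adjusted p = 0.0103, edgeR). On log2(TPM + 1) the difference was 0.43 and was not called (adjusted p = 0.0534, limma). The sliding clamp gene Pcna was not called (-0.15, adjusted p = 0.314), and the Dnmt3 cofactor Dnmt3l was listed at 0 in every library.

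Of 11 genes listed as other methyl-DNA readers, 2 rose and 6 fell (median -0.26). The list is wide, and not every member is known to bind methylated CpG itself. The zinc finger readers Zbtb38 and Zbtb4 rose, with log2 folds of 0.74 (adjusted p = 0.000966, edgeR) and 0.78 (adjusted p = 0.00152). The NuRD subunit gene Mbd3 fell by 0.42 (adjusted p = 0.00434), the glycosylase gene Mbd4 by 0.45 (adjusted p = 0.0108) and the histone methyltransferase gene Setdb1 by 0.44 (adjusted p = 0.00399). Of 8 binders of unmethylated CpG, none rose and 6 fell (median -0.45), among them Fbxl19 by 1.41, Kdm2b by 0.94, Cxxc5 by 2.21 and Kmt2b by 0.56. Exon bases are shared with genes on the opposite strand by Setdb1 (324), Mbd4 (264), Kdm2b (826) and Cxxc5 (11), and with genes on the same strand by Kdm2b (124) and Cxxc5 (49).

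Of 18 genes of active demethylation and repair tested, 1 rose and 9 fell (median -0.42). The stress gene Gadd45a fell by 2.50 on the log2 scale (adjusted p = 3.11e-05, edgeR), the glycosylase gene Neil3 by 2.67 and the abasic site endonuclease gene Apex1 by 0.99, which shares 877 exon bases with Pip4p1 on the opposite strand. Idh1, which makes the Tet cosubstrate 2-oxoglutarate, fell by 1.13. Tdg, the glycosylase that removes oxidised methylcytosine, rose in counts (log2 fold 1.38, adjusted p = 0.00119), but its counts held few of its reads, at 0.0287 of the usual count per TPM and length. In TPM it had 103.8 ± 6.02 in mature neurons, against 91.2 ± 6.40 in progenitors, and was not called (log2 difference 0.19, adjusted p = 0.0578, limma). Gadd45a shares 337 exon bases with E230016M11Rik and Tdg 367 with Glt8d2 on the opposite strand. For the 9 genes themselves the relative count ran from 0.636 to 1.31.

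Of 17 NuRD and corepressor genes, 2 rose and 11 fell (median -0.34). The deacetylase gene Hdac2 had 152 ± 18.3 CPM in mature neurons, against 583 ± 64.5 CPM in progenitors, a log2 fold of -1.94 (adjusted p = 1.15e-05, edgeR), and its paralogue Hdac1 rose, with a log2 fold of 1.03 in counts and 0.56 in TPM (adjusted p = 0.000281, edgeR, and 0.000499, limma). The relative count of Hdac1 was 0.196. The remodeller gene Chd4, which shares 63 exon bases with Mir7045 on its own strand, fell by 0.89 and Mta2 by 0.88. Of 17 genes of methyl donor metabolism tested, 4 rose and 6 fell (median -0.25). Those that rose include Ahcyl2 (log2 fold 0.99), Ahcyl1 (0.41) and the methionine synthase gene Mtr (0.60), and the thymidylate synthase gene Tyms, at a relative count of 0.269, fell by 1.34. Ahcy, whose name Ahcyl1 and Ahcyl2 extend, fell by 0.76 in counts (adjusted p = 0.00778, edgeR). On log2(TPM + 1) Ahcy fell by 0.77 (adjusted p = 0.00330, limma). Its relative count was 0.147, and it was named after its values were seen. The part of Ahcyl1 and Ahcyl2 in this metabolism was not tested. Mat2a, which makes the methyl donor S-adenosylmethionine, was not called (-0.25, adjusted p = 0.143, edgeR). Ahcyl2 shares 288 exon bases and Mat2a 508 with genes on the opposite strand. The relative count was 0.359 for Ahcyl2 and 0.336 for Kdm2b.

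**Figure D5:**
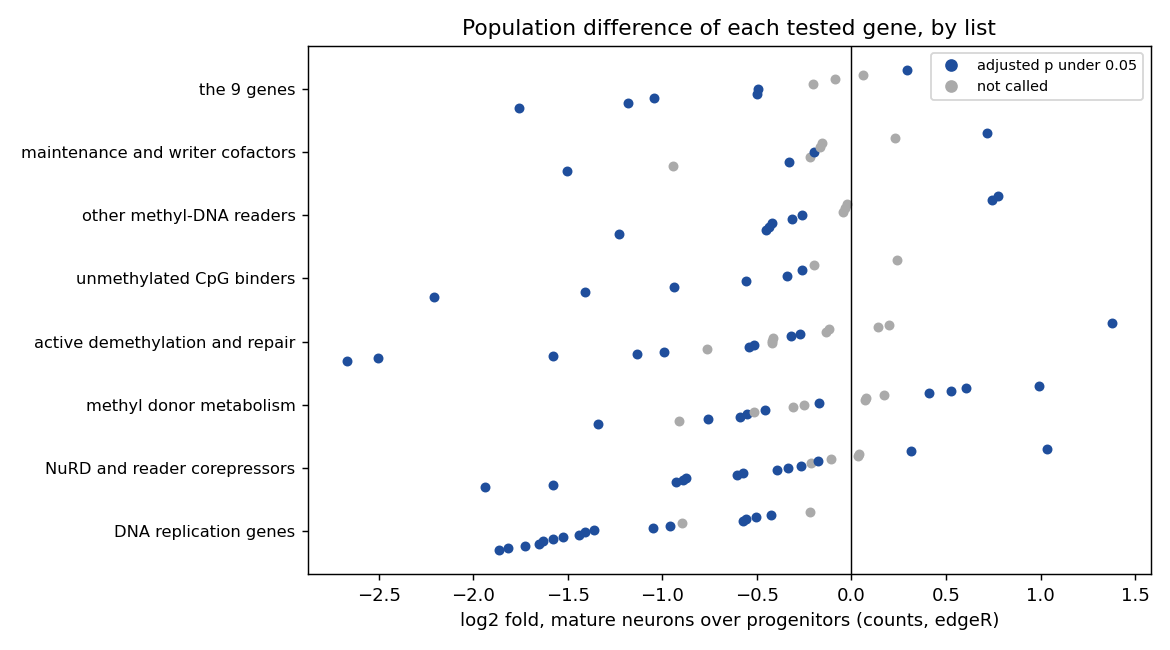
Log2 fold of mature neurons over progenitors (horizontal axis, edgeR) for each tested gene of the 9 and of 7 lists, with each point 1 gene, blue where the adjusted p is under 0.05. DNA replication genes lie to the left of 0, with a median of -1.38, and the other lists have medians between -0.50 and -0.20.

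Similar genes were sought among tested genes with a mean of at least 10 CPM. Olfr, Vmn, Taar, numbered Gm, Rik, -ps and -rs names were left out, which left 9706 candidates (9707 for Dnmt3b). Genes with the most similar pattern over the 7 libraries, by Pearson's r of log2(CPM + 1), are given as a description, since the libraries share population and age. For Dnmt1 they were Zfp532, Mta2 and Cep85 (r = 0.999, 0.998 and 0.998), and for Dnmt3b Cers6, Nuf2 and Mcm6 (0.998, 0.997 and 0.997). Uhrf1 was most like Fzd2, Rai14 and Capns1 (0.995, 0.995 and 0.994), Tet1 like Mtmr10, Raph1 and Arhgap23 (0.993, 0.989 and 0.986), and Tet3 like Arid2, Tnks and Rbm4 (0.989, 0.989 and 0.987). Dnmt3a was most like Zcchc2, Spock1 and Slc22a23 (0.982, 0.974 and 0.972), Tet2 like Eea1, Ostm1 and Ncl (0.976, 0.950 and 0.947), Mbd1 like Ercc6, Cstf2t and Fam107b (0.979, 0.973 and 0.972), and Mbd2 like Fbxl20, Fam220a and Fto (0.962, 0.955 and 0.949). Among the 9 themselves, Tet1 and Tet3 had r = 0.961, Dnmt3b and Uhrf1 0.941, and Dnmt1 and Dnmt3a -0.75.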

How the data were processed

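RNA of sorted cells was sequenced from TruSeq Stranded mRNA poly(A) libraries, per the labels' protocols. Named without a role, per the submitters' processing notes, are STAR 2.6.1c, RSEM, bcl2fastq 2.18 and the build mm10. Unnormalized counts for each gene and TPM values were deposited by the authors in separate tables. How strand was handled, and the annotation release, is not given in the sources used here. Entries that name no gene held 23.5% to 27.2% of a library and were left out.

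Counts were tested with edgeR 4.0.16 (R 4.3.3; quasi-likelihood, TMM, filterByExpr, Benjamini-Hochberg over 17975 genes, threshold 0.05), by population, by log2 postnatal day with population, and with their interaction. The SE is the fold over the root of its F statistic. Ratios of TPM within a library were compared by two-sided exact permutation tests over 35 splits. Alternatives used DESeq2 1.42.0, limma 3.58.1 on log2(TPM + 1) and log2(TPM + 0.1), other scalings, no filter, and libraries left out. On simulated data, the population test recovered 33%, 76.5% and 99% of genes changed by 0.5, 1 and 2 log2 units, and the age test 70% of slopes of 0.5. Each simulation changed 200 genes, while the population test on the real counts called 58.8%. The simulated spread came from the model with age and interaction. These recoveries therefore need not hold for the tests reported.

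The 9 genes and all lists were chosen with earlier results of these data known. Of each list, the up to 4 called genes with the smallest p were named, with Tdg, Hells, Uhrf2, Mbd3, Mbd4, Pcna, Dnmt3l and Mat2a in any case; 1 gene that this rule takes is not reported here. Coordinates and exon overlaps are from GENCODE M21 (GRCm38).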

Additional observations from a re-analysis of the deposited data

How the results depend on the processing

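Of 387 values of the 9 genes under alternatives, 362 kept their side of the threshold, 13 lost a call, 12 gained one, and no called value changed sign. Dnmt1, Dnmt3b, Tet1 and Tet3 kept their population call in all 16 alternatives. The number called higher was 1, and 0 when scaled by library size only, on log2(TPM + 1) and on log2(TPM + 0.1), and from 0 to 1 with 1 library left out, at 0 without the P7 mature, P3, P9 or P16 progenitor library. The number called lower ran from 4 to 7. The number with a negative age slope called was 0, and 2 with no filter, by DESeq2 and with postnatal day in place of its log2, and 0 to 2 with 1 library left out. All genes called for age then numbered 770 with no filter, 1500 by DESeq2, 1124 with postnatal day and 986 without the P7 mature library. With 1 library left out, log2 ratio differences ranged from 1.12 to 1.28 for Dnmt3a/Dnmt1, -2.75 to -2.01 for Dnmt3b/Dnmt3a, 0.61 to 0.79 for Tet2/Tet3 and -0.88 to -0.77 for Tet1/Tet2, and none passed, since fewer splits leave a larger smallest p. The labels carry no replicate numbers; with the P7 and P16 libraries paired by age as a block, 1 of the 9 was called higher and 5 lower. Of the lists, counts moved by over 1.5 times for cofactors (0 to 1 higher, 2 to 6 lower), other readers (3 to 8 lower), CpG binders (0 to 1 higher), demethylation and repair (0 to 2 higher), NuRD (1 to 2 higher) and germline genes (1 to 2 each way). The cause of the other changes was not tested. Among the 9 genes, Dnmt3b had the fewest counts, 25 to 76 in mature neurons.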

Other observations

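Of 15 germline genes that are known to be methylated in somatic cells, 3 had enough counts to be tested. Brdt, a bromodomain gene of the testis, had 203 ± 5.79 CPM in mature neurons, against 103 ± 3.32 CPM in progenitors (SD, n = 3 and 4), with a log2 fold of 0.98 (adjusted p = 8.36e-06, edgeR), and in TPM 127.6 ± 4.27 in mature neurons, against 70.7 ± 3.23 in progenitors. Ddx4, the germ cell helicase gene, had 0.326 ± 0.138 CPM in mature neurons, against 1.16 ± 0.311 CPM in progenitors, a log2 fold of -1.81 (adjusted p = 0.00391, edgeR). Dazl, a germ cell RNA-binding protein gene, had 1.43 ± 0.162 CPM in mature neurons, against 0.837 ± 0.288 CPM in progenitors and was not called (adjusted p = 0.0519, edgeR).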
